A study of Mus musculus with 6 samples.

Results

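The TRIM genes described here are the mouse genes named Trim with a number, apart from the muscle genes Trim72, Trim54, Trim55 and Trim63. They were chosen by symbol, with earlier results of these data known, and are 64 of the 27179 gene IDs in the count table. RNA had been sequenced from primary satellite cells of hindlimb muscle of wild-type C57BL/6 mice, which the labels call ageing without giving an age. The cells were grown in DMEM with fetal bovine serum and bFGF. They received recombinant human MG53 (rhMG53, 3 libraries) or bovine serum albumin (BSA, the vehicle control, 3 libraries) for 72 h. The labels do not say which animals or cultures the libraries came from, so p-values measure only the spread between these libraries, which may be technical.

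TRIM proteins share an amino-terminal tripartite motif of a RING finger, 1 or more B-boxes and a coiled coil, and most act as E3 ubiquitin ligases. The carboxy-terminal part differs between members and sets what they bind. Many members are induced by interferon and act in antiviral defence, while others control transcription, microtubules or the turnover of muscle proteins. MG53, the protein added to these cultures, is itself a TRIM protein encoded in the mouse by Trim72, so the comparison asks whether adding it moved the transcripts of its relatives.

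Libraries held 17374151 to 19827476 gene counts with rhMG53 and 17898768 to 22738745 with BSA. Both groups expressed muscle genes strongly, with the embryonic myosin gene Myh3 at a mean of 20511 CPM with rhMG53 and 22374 CPM with BSA (CPM, the count scaled to the size of its library). The satellite cell gene Pax7 was low, at 7.47 to 9.91 CPM with rhMG53 and 9.32 to 11.2 CPM with BSA. Of the 4 satellite cell markers listed, it alone had a negative log2 fold change of rhMG53 over BSA (-0.25). Cd82, Myf5 and Vcam1 had positive ones (0.039, 0.056 and 0.0996), at means over all libraries of 110.9, 15.3 and 16.3 CPM. Of the 4 markers 0 had an adjusted p under 0.05 in edgeR. Leukocyte markers were low but detected, from Ptprc, at 1 count in all rhMG53 libraries together and 6 counts in all BSA libraries together, to Itgam, at 4.97 CPM with rhMG53 and 4.73 CPM with BSA. The 6 leukocyte markers summed to 6.43 to 10.02 CPM with rhMG53 and 5.98 to 7.42 CPM with BSA. A list of 6 fibroblast markers summed to far more, 797 to 910 CPM with rhMG53 and 705 to 885 CPM with BSA. Most of this was Col1a1, at a mean of 736 CPM with rhMG53 and 695 CPM with BSA. The others ranged from Pdgfrb, at 85.2 CPM with rhMG53 and 82.0 CPM with BSA, down to Lum. Lum was almost absent, at 0.178 CPM with rhMG53 and 0.210 CPM with BSA. In these bulk libraries, a change in the number of cells of a type and a change in RNA per cell cannot be told apart.

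One DNA motif searched in the promoters of the family was the interferon-stimulated response element, the binding site of interferon regulatory factors and STAT complexes. It was searched on both strands as GAAA, any 2 bases and GAAA again, in RefSeq promoters (GRCm38.p6, the assembly of mm10) that run from 250 bases before to 50 bases after a transcript start. The promoter table held 50 of the 64 TRIM genes. Of the 13 genes in it from a textbook list of interferon-induced members, 8 held the motif (61.5%). Of the 37 other members 1 did (2.70%), against 3.99% of all 27025 genes in the table. The list holds known interferon targets and near-identical copies, so this is a description of the list and not an independent finding. The 30 bases around the matches are shown because the element belongs to the pathway that induces these members, whose values follow further on. Each is written 5′ to 3′ on the strand of its gene with the matched letters in capitals, and 2 overlapping matches are joined.
Trim21: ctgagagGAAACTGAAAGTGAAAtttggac
Trim26: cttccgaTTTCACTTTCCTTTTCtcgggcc
Trim34a: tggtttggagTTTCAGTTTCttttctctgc
Trim12a: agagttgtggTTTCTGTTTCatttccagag
Trim12c: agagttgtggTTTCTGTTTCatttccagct
Trim30a: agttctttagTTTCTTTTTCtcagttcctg
Trim2: tcagctttggTTTCCTTTTCtctaagacag

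These windows lie at chr7:102565447-102565476 on the minus strand for Trim21, chr17:36836979-36837008 on the plus strand for Trim26 and chr7:104244457-104244486 on the plus strand for Trim34a. The others are on the minus strand, at chr7:104315466-104315495 for Trim12a, chr7:104353359-104353388 for Trim12c, chr7:104465210-104465239 for Trim30a and chr3:84212791-84212820 for Trim2, the member outside the interferon list. Counting from the annotated transcript start as 1, the match spans positions 14 to 29 in Trim21 and 11 to 20 in Trim34a and Trim12a. It lies upstream of the start in Trim26, at -160 to -145, and in Trim12c, at -29 to -20. The Trim12a window had all 30 bases in common with that of Trim5 and 28 with that of Trim12c, and the Trim30a window shown had all 30 in common with that of Trim30d. A second Trim30a transcript start had a window with 26 identical bases. The other motifs searched were found at shares close to those of all genes. The gamma-activated site TTCNNNGAA, where N is any base, was in the promoters of 6 of 50 TRIM genes (12%) and 9.55% of all genes, and the E-box CANNTG, bound by myogenic factors, in 38 of 50 (76.0%) and 75.0%. A match describes these letters only and shows no binding.

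The 250 bases upstream of the Trim26 start are given because Trim26 is the most abundant of the searched members whose promoter held the element. Among the more abundant members, Trim35, Trim8, Trim16 and Trim3 had no promoter entry and were not searched. They lie at chr17:36836896-36837145 on the plus strand, with the matched letters in capitals.
Trim26: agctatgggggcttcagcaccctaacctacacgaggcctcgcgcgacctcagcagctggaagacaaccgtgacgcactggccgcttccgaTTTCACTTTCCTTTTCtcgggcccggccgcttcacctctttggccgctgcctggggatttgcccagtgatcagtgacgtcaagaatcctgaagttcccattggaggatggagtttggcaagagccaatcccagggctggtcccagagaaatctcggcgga

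No TRIM gene passed the test between rhMG53 and BSA. Of the 64 genes, 36 passed the filter on low counts and were tested, and 0 of the 36 passed an adjusted p of 0.05 in edgeR's quasi-likelihood test over all 13769 tested genes, of which 0.0218% did. DESeq2 and limma voom called 0 members as well. At an unadjusted p under 0.05, edgeR gave 1 member (Trim16), voom 1 and DESeq2 0, against 5.20% of all tested genes in edgeR (2.98% higher and 2.22% lower with rhMG53). Of the 36 members 21 had a positive log2 fold change and 15 a negative one, against 50.5% positive over all tested genes. The median log2 fold change of the 36 was 0.012, against 0.0014 over all tested genes. The median ranged from -0.018, without rhMG53 replicate 1, to 0.063, without BSA replicate 2, as single libraries were left out.

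The intervals show what sizes of change the data allow. The 95% interval of the log2 fold change lay within 0.5 of 0 for 24 of the 36 members, against 73.6% of all tested genes. It lay within 1 of 0, a doubling or halving, for 33, against 93.3% of all tested genes. The 3 others, Trim30a, Trim71 and Trim34a, were the 3 tested members under 1 CPM. A p that misses the threshold does not show that the groups are alike, and for the low members large changes in either direction remain possible.

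**Figure D1:**
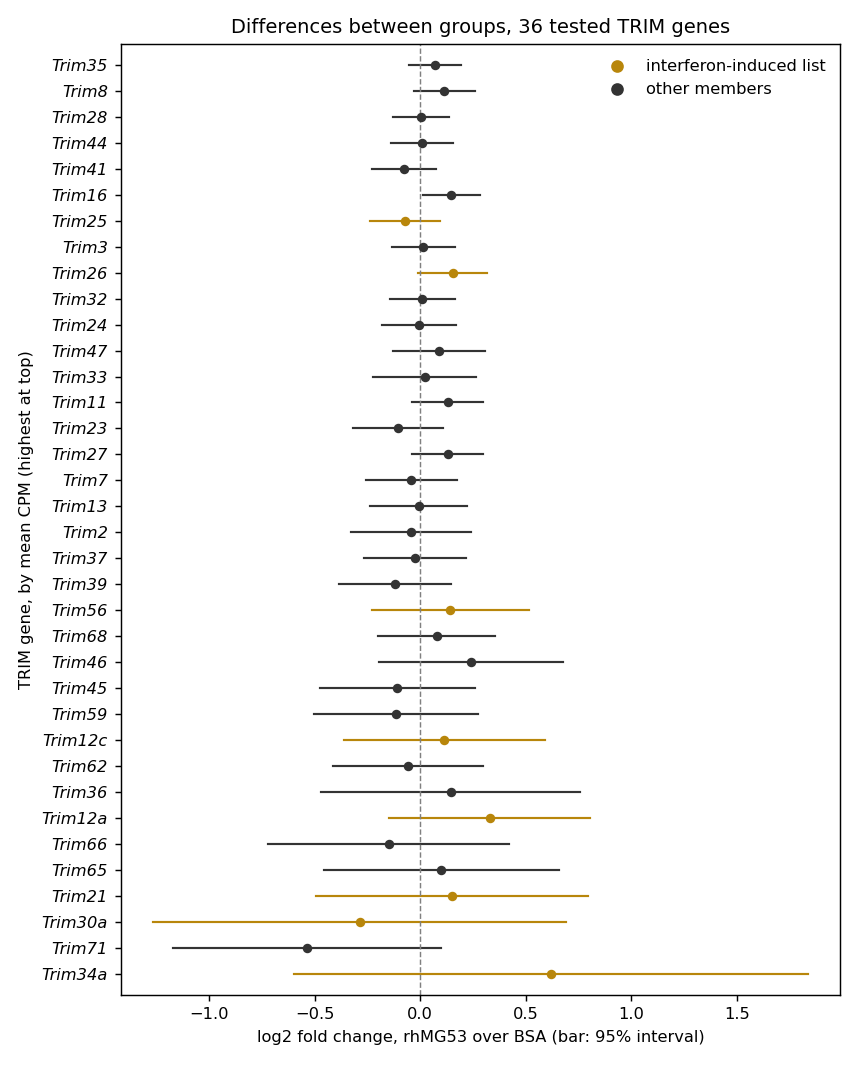
Log2 fold change of rhMG53 over BSA (x axis) with its 95% interval for the 36 tested TRIM genes, ordered by mean CPM, with members of the interferon-induced list in gold. Only the interval of Trim16 leaves out 0, and the intervals widen towards the low genes at the bottom.

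Trim35 dominated the family. This PRY-SPRY member, first described as Hls5 in blood lineage cells, lies on chromosome 14 at 66297025 to 66311424 in mm10 (gene ID 66854). It stood at 447, 429.8 and 449 CPM in rhMG53 replicates 1 to 3, against 423, 428 and 412 CPM in BSA replicates 1 to 3. All rhMG53 libraries were above all BSA libraries, by little, with means of 442 ± 10.5 CPM with rhMG53 and 421 ± 8.06 CPM with BSA (SD, n = 3 each). The log2 fold change was 0.07 (SE 0.056, 95% interval -0.053 to 0.19), and it did not pass in edgeR (adjusted p = 0.978). Trim35 alone made up 33.9% of the summed CPM of the 64 genes, and with Trim8 and Trim28 it made up 54.1%.

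Set per kilobase of annotated exon, which allows genes of different length to be compared, Trim35 reached the range of the muscle TRIM genes. Its level was 95.7 ± 2.28 CPM per kb with rhMG53 and 91.1 ± 1.75 with BSA (SD, n = 3 each). The sarcomere-associated Trim54 stood at 100.9 ± 6.30 CPM per kb with rhMG53 and 98.6 ± 1.73 with BSA. Its range over the 6 libraries, 93.9 to 106, overlapped that of Trim35, 89.2 to 97.1. Within libraries, Trim35 was above Trim54 only in rhMG53 replicate 1, at 96.9 against 93.9. Trim55, its relative at the sarcomere, was lower than Trim35 in all 6 libraries, at 69.6 to 81.3 CPM per kb. The atrophy ligase gene Trim63 stood lower still, at 22.7 to 24.6 CPM per kb, below Trim8 (32.8 to 39.1) and Trim28 (29.1 to 31.9). Trim72 was far above all of them, at 631 ± 36.1 CPM per kb with rhMG53 and 618 ± 33.3 with BSA. In plain CPM, means over all libraries were 431 for Trim35, 143 for Trim54, 201 for Trim55 and 66.9 for Trim63. The place of Trim35 beside Trim54 thus depends on the annotated exon lengths, 4618 and 1436 bases. Which transcripts were expressed was not tested. Antisense transcripts overlap 26.6% of the exon bases of Trim54 and 27.6% of those of Trim72. In Trim35, 2.14% overlap a transcript on the opposite strand. The part of such transcripts in these levels was not tested. Below Trim28, Trim41 came next without overlapping its neighbours. From Trim44 down to Trim32, through Trim13, Trim16 and Trim47, the ranges of genes next to each other overlapped. Within single libraries Trim47 was above Trim32 in all 6. The order of the other neighbours in this stretch changed between libraries and is not resolved.

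**Figure D2:**
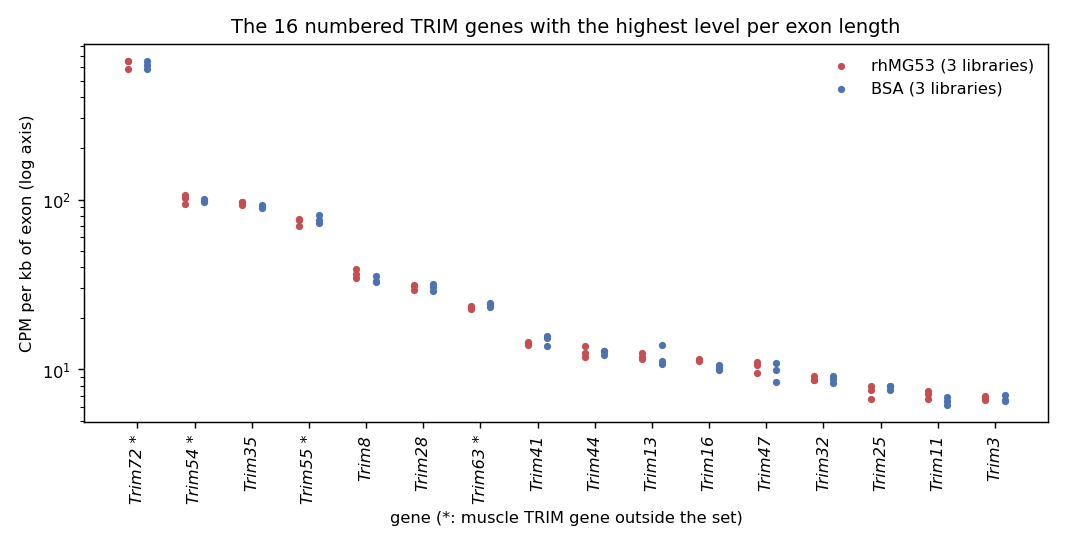
CPM per kilobase of exon (y axis, log scale) in each library for the numbered TRIM genes with the highest levels, rhMG53 left of BSA, with an asterisk for the muscle genes Trim72, Trim54, Trim55 and Trim63. Trim35, at 89.2 to 97.1, sits beside Trim54 and above Trim55.

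The muscle TRIM genes themselves did not pass in edgeR (adjusted p 0.983 to 0.992). Their log2 fold changes were 0.03 for Trim72, 0.03 for Trim54, -0.051 for Trim55 and -0.058 for Trim63.

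Among the members that act on transcription, Trim28, the corepressor recruited by KRAB zinc finger proteins, was the most abundant. It stood at 123, 128 and 131 CPM in rhMG53 replicates 1 to 3, against 128, 121 and 132 CPM in BSA replicates 1 to 3. The groups overlapped fully, and the log2 fold change was 0.0041 (95% interval -0.13 to 0.14). Trim24, a nuclear receptor cofactor, averaged 27.7 ± 1.14 CPM with rhMG53 and 27.8 ± 2.37 CPM with BSA. Trim33, known for its action on SMAD proteins downstream of TGF-beta, averaged 27.0 ± 3.46 CPM with rhMG53 and 26.6 ± 3.22 CPM with BSA (SD, n = 3 each). Their relative Trim66, of the same PHD finger and bromodomain class, was at 1.48 CPM with rhMG53 and 1.65 CPM with BSA. None of these 4 genes passed, and all 4 had overlapping groups.

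The proteins that work with Trim28 in heterochromatin were counted beside it. Their genes share libraries, so the directions do not count as independent. The summed CPM of the list was 1655, 1449 and 1615 in rhMG53 replicates 1 to 3. With BSA it was 1716, 1685 and 1570 in replicates 1 to 3, so the groups overlapped. Of 14 listed partners 12 had a negative log2 fold change and 2 a positive one, with a median of -0.058, and 0 passed in edgeR, where 1 had an unadjusted p under 0.05. Over all tested genes 50.5% had a positive value and 5.20% an unadjusted p under 0.05, so that 1 of 14 is near the background. It was Chd3, a chromatin remodeller of the NuRD complex, at 167 ± 14.0 CPM with rhMG53 and 189.5 ± 12.6 CPM with BSA (SD, n = 3 each). Its log2 fold change was -0.19 (SE 0.075, edgeR adjusted p = 0.946). The chromatin ATPase gene Morc3 averaged 60.9 ± 4.83 CPM with rhMG53 and 66.5 ± 3.32 CPM with BSA, with a log2 fold change of -0.13 (SE 0.073, edgeR adjusted p = 0.965).

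The next most abundant members included regulators of signalling. Trim8, which acts on SOCS and NF-kB signalling in human cells (chromosome 19, 46501648 to 46516805), stood at 127, 145 and 135 CPM in rhMG53 replicates 1 to 3, against 123, 122 and 132 CPM in BSA replicates 1 to 3. The groups overlapped through BSA replicate 3, and the log2 fold change of 0.11 (SE 0.066, 95% interval -0.031 to 0.26) did not pass in edgeR (adjusted p = 0.965). Trim44, which lacks the RING finger and carries a zinc finger found in deubiquitinases, averaged 71.6 ± 5.05 CPM with rhMG53 and 71.3 ± 1.95 CPM with BSA (SD, n = 3 each). Trim41, which degrades protein kinase C in human cells, stood at 50.7, 48.9 and 50.3 CPM in rhMG53 replicates 1 to 3, against 54.0, 55.6 and 48.5 CPM in BSA replicates 1 to 3. Their log2 fold changes were 0.0069 for Trim44 (95% interval -0.14 to 0.15) and -0.077 for Trim41 (95% interval -0.23 to 0.074).

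Trim16 had the smallest p of the family. This member without a RING finger binds galectin-3 at damaged endomembranes in human cells and lies on chromosome 11 at 62820198 to 62842948. It stood at 51.2, 52.0 and 52.7 CPM in rhMG53 replicates 1 to 3, against 45.3, 48.8 and 46.8 CPM in BSA replicates 1 to 3. Every rhMG53 library was above every BSA library, and the fold was 1.11. The log2 fold change was 0.15 (SE 0.061, 95% interval 0.012 to 0.28, unadjusted p = 0.0351), and it did not pass over all genes in edgeR (adjusted p = 0.946, and at least 0.789 over the alternatives). Its unadjusted p was not under 0.05 in DESeq2 or with no filter on low counts, nor when replicate 1 or 3 of rhMG53, or replicate 1 or 3 of BSA, was left out. Its annotated exons share 5.19% of their bases with Fbxw10 on the same strand.

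Groups did not overlap for 5 of the 36 members, against 10.8% of all tested genes. Besides Trim35 and Trim16, 2 more were higher in all rhMG53 libraries, so that 4 were higher, against 5.94% of all tested genes. Trim26, an interferon-linked member of the major histocompatibility region, stood at 31.9, 29.7 and 30.2 CPM in rhMG53 replicates 1 to 3, against 28.0, 29.0 and 25.6 CPM in BSA replicates 1 to 3. Trim27, a ligase of endosomal sorting, stood at 21.0, 22.6 and 21.7 CPM in rhMG53 replicates 1 to 3, against 18.9, 20.6 and 20.3 CPM in BSA replicates 1 to 3. In both genes the lowest rhMG53 library was close above the highest BSA library. The log2 fold changes were 0.15 (SE 0.074, edgeR adjusted p = 0.958) for Trim26 and 0.13 (SE 0.076, edgeR adjusted p = 0.965) for Trim27.

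The fifth was Trim71, the only tested member that was lower in all rhMG53 libraries, against 4.83% of all tested genes. This NHL repeat protein is an RNA-binding target of let-7 in early development. It had 18, 14 and 9 counts in rhMG53 replicates 1 to 3, against 27, 19 and 17 counts in BSA replicates 1 to 3. On the CPM scale these were 0.908, 0.762 and 0.521 with rhMG53 and 1.19, 1.07 and 0.934 with BSA. The log2 fold change of -0.54 (SE 0.289, 95% interval -1.17 to 0.10) did not pass in edgeR (adjusted p = 0.965). At such counts the scatter from counting alone is wide.

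The other NHL members had small log2 fold changes and overlapping groups. Trim32, whose mutation causes a limb-girdle muscular dystrophy in humans and which acts on actin and desmin in muscle, stood at 29.6, 28.1 and 28.0 CPM in rhMG53 replicates 1 to 3, against 27.0, 29.8 and 28.5 CPM in BSA replicates 1 to 3. The groups overlapped, with a log2 fold change of 0.010 (95% interval -0.14 to 0.16). Trim3 averaged 31.1 ± 0.823 CPM with rhMG53 and 30.8 ± 1.47 CPM with BSA (SD, n = 3 each). Trim2, known for its part in neurofilament turnover, averaged 16.1 ± 2.80 CPM with rhMG53 and 16.5 ± 1.88 CPM with BSA. The log2 fold changes were 0.015 for Trim3 (95% interval -0.14 to 0.16) and -0.044 for Trim2 (95% interval -0.33 to 0.24).

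**Figure D3:**
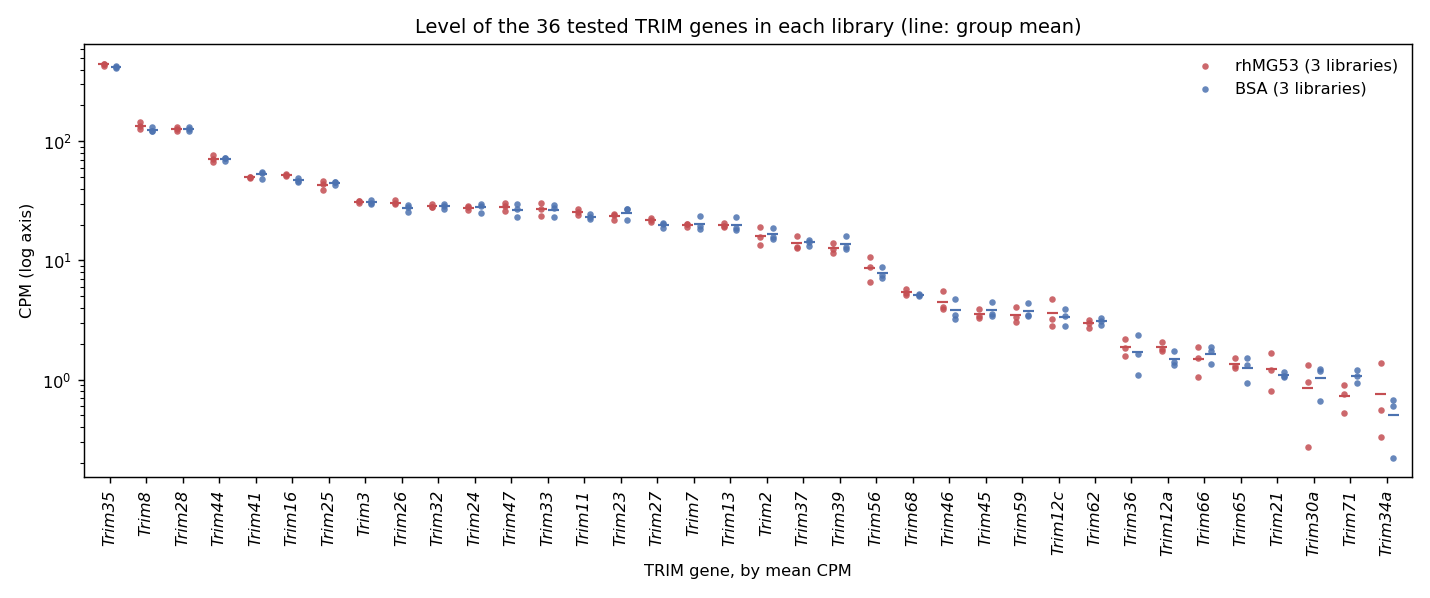
CPM in each library (y axis, log scale) for the 36 tested TRIM genes, ordered by mean, rhMG53 left of BSA, with lines at the group means. Trim35 stands above 400 CPM, apart from the rest, and the scatter between libraries grows towards the low genes on the right.

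No class of the family held a member that passed. Of the 37 PRY-SPRY genes 18 were tested, of which 12 had a positive and 6 a negative log2 fold change (median 0.094). The 3 tested genes with an ARF, MATH or filamin part (Trim23, Trim37 and Trim45) had negative values of -0.11, -0.023 and -0.11. The 2 transmembrane members, Trim13 of the endoplasmic reticulum and Trim59, had values of -0.0081 and -0.12, and the 2 tested COS box members, the microtubule-linked Trim36 and Trim46, had 0.14 and 0.24. The smallest adjusted p in any class was 0.946, in edgeR. Trim11, a PRY-SPRY member tied to the clearance of misfolded proteins, averaged 25.5 ± 1.38 CPM with rhMG53 and 23.3 ± 1.16 CPM with BSA, with overlapping groups (log2 fold change 0.13, SE 0.076, edgeR adjusted p = 0.965). Trim47 averaged 28.3 ± 2.17 CPM with rhMG53 and 26.7 ± 3.30 CPM with BSA (SD, n = 3 each, log2 fold change 0.087), and 8.23% of its exon bases are also annotated to Trim65.

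The summed CPM of all 64 genes was 1303, 1274 and 1302 in rhMG53 replicates 1 to 3, against 1252, 1266 and 1244 in BSA replicates 1 to 3. Without Trim35 the sum was 856, 844 and 854 with rhMG53 and 829, 839 and 832 with BSA. All rhMG53 sums were above all BSA sums in both cases, and no p is given for a score over these members. Such sums weigh the abundant members most. Without Trim35 they averaged 851 CPM with rhMG53 and 833 CPM with BSA, and Trim8 alone averaged 136 and 125 CPM. The separation is therefore not shown to be a trait of the whole family. Among the 21 members with at least 10 CPM the coefficient of variation between libraries had a median of 4.75% with rhMG53 and 5.55% with BSA. It was lowest for Trim16 (1.44%) and highest for Trim2 (17.4%) with rhMG53, and lowest for Trim35 (1.92%) and highest for Trim13 (14.4%) with BSA.

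Most of the tested interferon-induced members were low, and several varied widely between libraries. Of the 14 on the list 8 were tested, 6 with a positive and 2 with a negative log2 fold change (median 0.15), 0 passed in edgeR and 0 had an unadjusted p under 0.05. Trim25, which ubiquitinates the RNA sensor RIG-I in human cells, led the list by level, at 43.7, 38.8 and 46.2 CPM in rhMG53 replicates 1 to 3, against 46.0, 46.0 and 43.3 CPM in BSA replicates 1 to 3. Its groups overlapped (log2 fold change -0.072, 95% interval -0.24 to 0.093). Trim56, which acts with the DNA-sensing pathway, stood at 10.7, 6.59 and 8.80 CPM in rhMG53 replicates 1 to 3, against 8.88, 7.17 and 7.53 CPM in BSA replicates 1 to 3, so that rhMG53 held both the highest and the lowest library.

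Trim34a had the widest interval among the tested members. It had 11, 6 and 24 counts in rhMG53 replicates 1 to 3, against 5, 12 and 11 counts in BSA replicates 1 to 3, and 23.5% of its exon bases overlap an antisense transcript. The log2 fold change was 0.62 (SE 0.553, 95% interval -0.60 to 1.84), and without rhMG53 replicate 3 it was -0.12. Trim21, the cytosolic antibody receptor, had 16, 22 and 29 counts in rhMG53 replicates 1 to 3, against 24, 19 and 21 counts in BSA replicates 1 to 3. Its log2 fold change of 0.15 likewise became -0.13 without rhMG53 replicate 3.

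Trim30a, which dampens NF-kB signalling in the mouse, had 19, 5 and 23 counts in rhMG53 replicates 1 to 3, against 28, 21 and 12 counts in BSA replicates 1 to 3. Its log2 fold change was -0.29 (95% interval -1.26 to 0.69), and it was 0.13 without rhMG53 replicate 2. Trim30d, below the filter, had 9, 2 and 16 counts in rhMG53 replicates 1 to 3, against 12, 5 and 2 counts in BSA replicates 1 to 3. Over the 8 tested members of the list, replicate 2 was the lowest rhMG53 library for 7, all but Trim21, against 37.0% of all tested genes. Over the 36 tested TRIM genes the share was 47.2%. Replicate 3 was the highest rhMG53 library for 4 and replicate 1 for the other 4. These genes share libraries and, in part, sequence, so they do not count as independent, and the tally was made after their values were seen.

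Trim12a and Trim12c, rodent relatives of primate TRIM5, were likewise lowest in replicate 2 among rhMG53 libraries. Trim12a had 2.07, 1.74 and 1.80 CPM in rhMG53 replicates 1 to 3, against 1.41, 1.75 and 1.32 CPM in BSA replicates 1 to 3. Its rhMG53 counts were 41, 32 and 31, so replicates 2 and 3 were nearly tied. Trim12c had 4.74, 2.83 and 3.24 CPM in rhMG53 replicates 1 to 3, against 2.83, 3.90 and 3.41 CPM in BSA replicates 1 to 3. In both the highest library was rhMG53 replicate 1, and the groups overlapped. Their log2 fold changes were 0.33 (SE 0.216, edgeR adjusted p = 0.973) and 0.11 (SE 0.216, edgeR adjusted p = 0.992). Reads of Trim5, Trim6, Trim12a, Trim12c, Trim30a to Trim30d, Trim34a and Trim34b, which lie together on chromosome 7, can be shared or lost between near-identical copies. The 10 genes of this cluster summed to 9.13, 5.50 and 9.27 CPM in rhMG53 replicates 1 to 3, against 6.63, 8.41 and 6.92 CPM in BSA replicates 1 to 3. Gene IDs without a symbol took 0.552%, 0.880% and 1.26% of counts in rhMG53 replicates 1 to 3, against 0.509% to 0.617% with BSA. The summed leukocyte markers were highest in rhMG53 replicate 2 through Lyz2, at 3.97 CPM there. Without Lyz2 the sums were 6.61, 6.04 and 5.79 CPM in rhMG53 replicates 1 to 3, against 6.67, 5.42 and 6.15 CPM in BSA replicates 1 to 3. The part of either in these values was not tested.

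**Figure D4:**
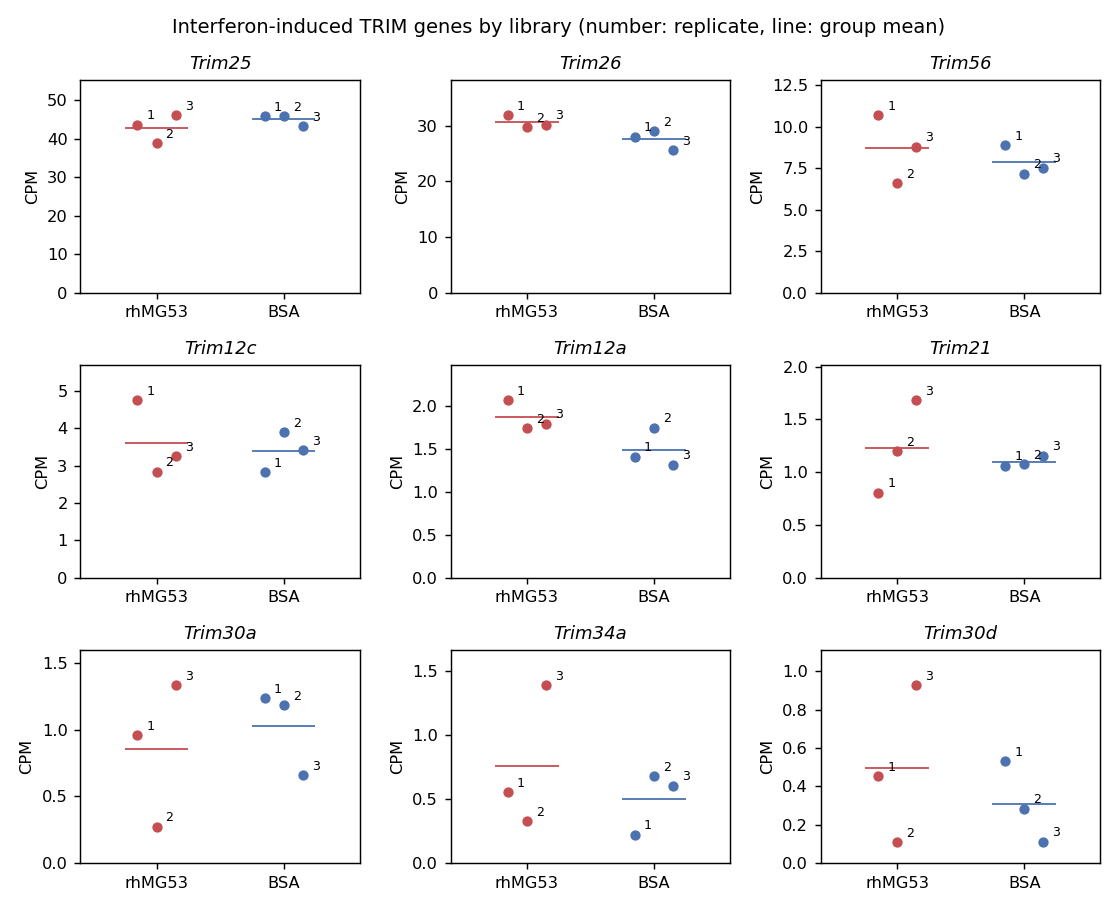
CPM (y axes, linear from 0) of the 8 tested members of the interferon-induced list and of Trim30d in each library, rhMG53 left of BSA, with replicate numbers and group means. Replicate 2 is the lowest rhMG53 library for 7 of the 8 tested members, all but Trim21, and the highest is replicate 1 for 4 and replicate 3 for 4.

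The pathway that induces these members was measured as a list of 25 genes of nucleic acid sensing and interferon signalling. Its summed CPM was 572, 527 and 566 in rhMG53 replicates 1 to 3, against 540, 546 and 536 in BSA replicates 1 to 3. The groups overlapped, and genes that share libraries do not count as independent. Of the 25, 18 had a positive and 7 a negative log2 fold change (median 0.063), against 50.5% positive among all tested genes, and 0 passed or had an unadjusted p under 0.05 in edgeR. The smallest p were those of Irf1, a transcription factor of the interferon response, and Ifnar2, a subunit of the type I interferon receptor. Irf1 averaged 10.1 ± 0.422 CPM with rhMG53 and 8.44 ± 1.31 CPM with BSA (log2 fold change 0.25, SE 0.126, edgeR adjusted p = 0.965). Ifnar2 averaged 12.6 ± 1.27 CPM with rhMG53 and 10.7 ± 1.18 CPM with BSA (SD, n = 3 each, log2 fold change 0.23, SE 0.116, edgeR adjusted p = 0.965). Replicate 2 was the lowest rhMG53 library for 15 of the 25 and the highest for 5, against 37.0% and 37.5% of all tested genes, and 7 were highest in replicate 3 and lowest in replicate 2, against 16.5%. Among these 7 was Isg15, an interferon-induced ubiquitin-like protein gene named after its values were seen. It stood at 1.87, 1.58 and 4.40 CPM in rhMG53 replicates 1 to 3, against 1.94, 2.37 and 1.54 CPM in BSA replicates 1 to 3. The groups overlapped (edgeR adjusted p = 0.981).

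TRIM ligases take ubiquitin from E2 enzymes, which were measured together with ubiquitin and E1 genes. The summed CPM of this list was 3957, 4207 and 4029 in rhMG53 replicates 1 to 3. With BSA it was 3955, 4025 and 3979 in replicates 1 to 3, so the groups overlapped. The listed genes share libraries, and their directions do not count as independent. Of these 25 genes 20 had a positive and 5 a negative log2 fold change (median 0.031), 0 passed in edgeR, and 1 had an unadjusted p under 0.05, against 50.5% positive and 5.20% under 0.05 among all tested genes. The 1 gene was Ube2d2a, an E2 of the family that serves most TRIM ligases, at 49.8 ± 3.24 CPM with rhMG53 and 41.6 ± 4.63 CPM with BSA (SD, n = 3 each, log2 fold change 0.26, SE 0.088, edgeR adjusted p = 0.935). Of the family members with other symbols, the microtubule-associated Mid1 averaged 156 ± 8.12 CPM with rhMG53 and 159 ± 5.24 CPM with BSA (SD, n = 3 each). Pml, the organiser of PML nuclear bodies, averaged 23.5 ± 0.705 CPM with rhMG53 and 23.8 ± 1.77 CPM with BSA. Neither passed, and Mefv was listed at 0 in all 6 libraries.

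The remaining 28 of the 64 genes were too low to test. Of these 6 had no count in any library (Trim58, Trim80, Trim52, Trim30c, Trim60 and Trim61), which allows up to 3 counts in a library, or 0.174 CPM in rhMG53 replicate 3. A further 13 had 1 to 15 counts over all libraries, and 9 had more, up to 49 for Trim17, whose exons share 19.0% of their bases with a histone gene. Trim14, on the interferon list, had a lone count, in BSA replicate 3, and 31.3% of its exon bases overlap Nans on the opposite strand. Trim67, a COS box member, had 5, 2 and 2 counts in rhMG53 replicates 1 to 3, against 9, 8 and 7 counts in BSA replicates 1 to 3. The groups did not overlap, and with no filter on low counts its log2 fold change was -1.31 (SE 0.611), which did not pass in edgeR (adjusted p = 0.906).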

How the data were processed

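The authors deposited whole-number counts per NCBI gene ID and library, not normalised. Per the submitters' processing notes mm10 is the build, and STAR, featureCounts and edgeR are among the tools named. Per the labels the libraries were poly(A)-selected and made with a directional kit, and all 6 carry the same batch label. The annotation, the counting's strand setting and the handling of multi-mapped reads: not given in the sources used here. Symbols came from a RefSeq table of GRCm38.p6, which named 25275 of 27179 IDs, and GENCODE, which named 18. The 64 members, the gene lists and the classes were chosen with earlier results of these data known. Genes were kept with filterByExpr (minimum count 10, minimum total 15), which left 13769, scaled with TMM factors and tested with edgeR's 2-sided quasi-likelihood F test (edgeR 4.0.16, R 4.3.3), treatment as the only term, p-values adjusted by Benjamini-Hochberg across the kept genes. SE is the log2 fold change over the square root of F. Intervals cover 95%. Exon length is the union of GENCODE M21 exons. The intervals include the spread between libraries that the fit estimates, while the limits on counts of 0 cover counting error only. The fit was tested on simulated data. Named members are the 12 with the highest mean CPM, the 8 with the smallest p, the tested interferon-induced ones, and 2 genes of smallest p from each pathway list (1 of these is not reported here); others are named for their class, a separation of groups or counts under the filter. Alternatives were RLE factors, library totals, other filters, DESeq2 1.42.0, limma voom (limma 3.58.1), the replicate number as a term, and leaving out each library.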

Additional observations from a re-analysis of the deposited data

How the results depend on the processing

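No TRIM member passed under any of the 13 alternatives, and no named gene did (adjusted p at least 0.632). The count of all genes called was 3, and 5 in DESeq2, 6 with no filter on low counts, and 0 to 4 when a library was left out. With the replicate number as a block in edgeR 0 genes were called, with 4.42% of tested genes at an unadjusted p under 0.05. Deviations from the group means of same-numbered libraries had correlations of 0.19, -0.13 and -0.15, against -0.22 to 0.30 for other pairs. With 3 libraries per group, such values cannot show whether the numbers pair the libraries, and the labels do not say. Members at an unadjusted p under 0.05 numbered 1, and 0 in DESeq2, 2 with library totals alone, 2 with no filter, and 0 to 2 when a library was left out. The median log2 fold change of the members was -0.018 to 0.063 when a library was left out.

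Of 422 values of 33 named genes under the alternatives, 397 kept their sign and 25, in 15 genes, turned it. Trim24 was at 0.0086 with library totals, and Trim28 at -0.00092 with RLE factors. When a library was left out, the log2 fold change ranged from -0.069 to 0.0043 for Mid1, -0.079 to 0.026 for Pml, -0.14 to 0.26 for Trim12c, -0.13 to 0.39 for Trim21, -0.074 to 0.037 for Trim24, -0.029 to 0.035 for Trim28, -0.010 to 0.053 for Trim3, -0.73 to 0.13 for Trim30a and -0.025 to 0.044 for Trim32. It ranged from -0.12 to 0.97 for Trim34a, -0.050 to 0.051 for Trim44, -0.0081 to 0.17 for Trim47, -0.0040 to 0.083 for Trim54, -0.040 to 0.31 for Trim56 and -0.0048 to 0.079 for Trim72. The cause was not tested.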
